A study of Mus musculus with 8 samples.

Results

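Short-chain fatty acids such as butyrate reach cells through 2 kinds of membrane protein, receptors that sense them outside the cell and carriers that bring them in. The genes analysed here are 8 that encode these proteins in the mouse: the receptors Ffar2, Ffar3 and Hcar2, the carriers Slc5a8, Slc16a1, Slc16a3 and Slc16a7, and Bsg, which encodes the chaperone basigin. They were taken by name from the 22740 protein-coding genes listed, with no threshold on their values. The choice was made with earlier results of these data known. Hcar2 is listed under its older symbol Niacr1. Of these 8, 7 passed the filter on low counts and were tested among 15163 genes in all. Only Ffar3 did not pass.

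RNA of whole skin was sequenced from 8 female BALB/c mice, in 4 groups of 2 mice with 1 library for each mouse. The methods of the study give an age of 6 to 8 weeks for mice entering the allergen model, and no age at which skin was taken. According to the methods of the study all 4 groups were fed a low-fibre diet, so no group represents skin under a standard diet. CTL mice drank water without butyrate. Butyrate-treated mice drank water with 400 mM sodium butyrate. In the allergen model this started 2 weeks ahead of allergen exposure and continued throughout. Baseline skin was taken when butyrate treatment ended, and the methods do not say how long that treatment was. Length of treatment may therefore differ between baseline and lesional butyrate-treated mice. Lesional skin came from mice that received house dust mite (HDM) allergens on the dorsal skin, 15 µg on each of 4 occasions within 2 weeks, a model of atopic dermatitis-like inflammation. Baseline skin came from mice that were never exposed to HDM. In the model HDM is applied under anaesthesia to shaved skin and kept beneath an occlusive dressing. The methods do not say whether the sequenced baseline mice were shaved or dressed, so these steps and HDM cannot be told apart. The labels of baseline and lesional mice begin with different numbers, so that HDM exposure and any other difference between these sets of mice cannot be told apart. The second number of the labels likewise splits the mice by treatment, so the same holds for butyrate. The labels name mice by number and do not say how these were caged or handled, and the p-values measure the spread between these mice only.

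FFAR2 and FFAR3 are G protein-coupled receptors for acetate, propionate and butyrate, best known from immune, endocrine and nerve cells. HCAR2 (GPR109A) binds butyrate, the ketone body β-hydroxybutyrate and the vitamin niacin, and in skin it is known from keratinocytes and Langerhans cells as the receptor behind the niacin flush. SLC16A1, SLC16A3 and SLC16A7 (MCT1, MCT4 and MCT2) move lactate, pyruvate and short-chain fatty acids across the membrane together with a proton, while SLC5A8 (SMCT1) uses the sodium gradient. MCT1 and MCT4 need basigin to reach the cell surface, and MCT2 mainly uses its relative embigin. Lactate made by glycolysis leaves cells mainly through MCT4, and MCT1 carries monocarboxylates in either direction.

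The promoters of Slc16a1, Slc16a3 and Slc5a8 are shown because these are the most abundant carrier transcripts, and it is their levels and shares that the comparison of lesional and baseline skin turns on. Each sequence is the 250 bases before the RefSeq start on GRCm38.p6, on the plus strand, and capitals mark ACGTG, the core of the hypoxia response element that HIF-1 binds, or the CACGTG E-box that contains it.
Slc16a1, chr3:104638414-104638663: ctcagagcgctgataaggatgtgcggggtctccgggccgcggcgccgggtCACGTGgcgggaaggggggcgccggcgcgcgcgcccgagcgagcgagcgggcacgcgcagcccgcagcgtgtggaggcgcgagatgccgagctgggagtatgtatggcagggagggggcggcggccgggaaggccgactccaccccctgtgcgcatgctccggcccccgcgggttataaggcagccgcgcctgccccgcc
Slc16a3, chr11:120948817-120949066: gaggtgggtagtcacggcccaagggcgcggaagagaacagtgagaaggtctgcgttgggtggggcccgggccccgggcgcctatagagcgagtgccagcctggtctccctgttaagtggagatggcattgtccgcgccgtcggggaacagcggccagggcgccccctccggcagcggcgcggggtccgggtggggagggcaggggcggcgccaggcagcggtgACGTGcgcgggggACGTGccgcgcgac
Slc5a8, chr10:88885742-88885991: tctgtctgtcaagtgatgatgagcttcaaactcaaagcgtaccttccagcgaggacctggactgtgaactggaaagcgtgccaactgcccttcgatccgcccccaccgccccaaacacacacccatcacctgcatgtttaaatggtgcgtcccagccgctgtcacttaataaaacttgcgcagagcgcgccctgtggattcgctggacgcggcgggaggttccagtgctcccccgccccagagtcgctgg

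Searched on both strands were the HIF core with the letters ACGTG, the E-box with the letters CACGTG, the GC box with the letters GGGCGG, the box with the letters CCAAT and the TATA box with the letters TATAAA. The Slc16a1 promoter holds CACGTG from position -200, where -1 is the last base before the start, and this palindrome is also read as ACGTG on each strand. It holds GGGCGG from -85. The Slc16a3 promoter holds ACGTG from -27 and again from -14, on the strand of the gene, and GGGCGG from -48. The Slc5a8 promoter holds no ACGTG, and GGGCGG on the opposite strand from -154, -145 and -18. Among 32851 mouse promoters of this length ACGTG is found in 16.6%, CACGTG in 6.0% and GGGCGG in 32.7%, so these letters are common. The 3 windows hold 37, 29 and 17 CpG against a median of 6 over all promoters. None of the 3 holds CCAAT or TATAAA, found in 33.8% and 12.4% of promoters. The Slc16a3 window lies inside the span that GENCODE vM21 gives the gene (chromosome 11, 120948480 to 120960868), which has an earlier start.

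Baseline butyrate replicate 3 stood apart from the other 7 libraries. Its hair follicle markers summed to 17770 CPM (counts relative to the library size scaled by TMM) against 8.63 to 14.6 CPM in the others, in which at most 1 of 8 listed markers was at 0 counts. The sum of melanocyte markers was 723 CPM against 24.7 to 44.1 CPM. Skeletal muscle markers summed to 12820 CPM against 54090 to 62420 CPM in the other baseline mice and 17690 to 32250 CPM in lesional mice. Within the pair of baseline butyrate-treated mice 26.5% of 14198 genes were over 2-fold apart, against 1.94%, 1.43% and 4.81% in the other pairs. The same pair was over 2-fold apart in 5 of the 7 tested members, Hcar2, Slc5a8, Slc16a1, Slc16a3 and Slc16a7, and the only other case was Slc5a8 in the lesional butyrate pair. Neutrophil markers summed to 24.6 to 45.04 CPM in baseline skin, to 3005 and 1944 CPM in lesional CTL mice and to 853 and 413 CPM in lesional butyrate-treated mice, and in lesional skin at most 1 of 14 was at 0 counts. S100a8 and S100a9 made up most of this sum in lesional skin, and Ly6g had at most 5 counts in any mouse. The paper counts S100a8 among TH17/TH22-associated genes, so this part of the sum need not come from neutrophils. In CTL mice 13 of 13 tested neutrophil markers were higher in lesional skin. Suprabasal keratinocyte markers summed to 15640 to 16600 CPM in 3 baseline mice and 3755 CPM in baseline butyrate replicate 3, to 3366 and 4909 CPM in lesional CTL mice and to 13900 and 10990 CPM in lesional butyrate-treated mice. Basal keratinocyte markers, which define the tissue, summed to 8081 to 13550 CPM in all mice. In whole skin a lower share of a cell type and less RNA per cell cannot be told apart, and the part of these differences in the results below was not tested.

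**Figure D1:**
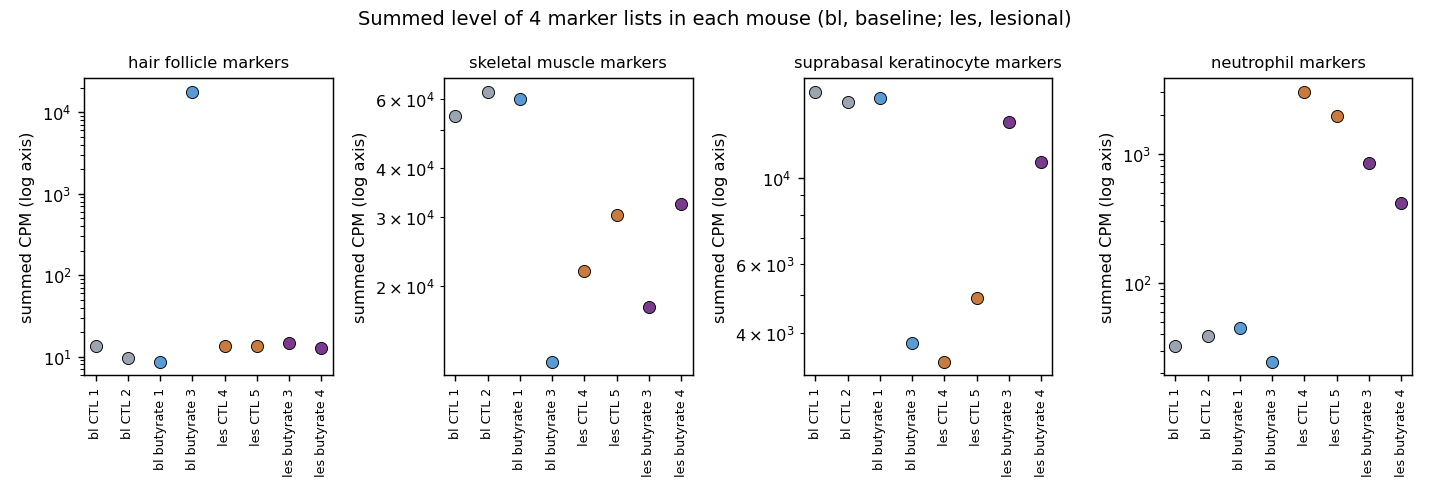
Summed CPM (log axis) of the hair follicle, skeletal muscle, suprabasal keratinocyte and neutrophil markers in each of the 8 mice, coloured by group. Baseline butyrate replicate 3 is at 17770 CPM for hair follicle markers while the other 7 mice are between 8.63 and 14.6 CPM, and neutrophil markers are between 413 and 3005 CPM in the 4 lesional mice and at most 45.04 CPM in the others.

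Genes were compared per kb of exon, with length taken from the union of exons and not from the transcripts expressed. On this scale basigin transcripts were the most abundant, with a median over the 8 mice of 182 CPM per kb (168 to 209). Hcar2 came next with 26.3 CPM per kb (8.69 to 37.5), followed by Slc16a1 with 22.8 (5.12 to 35.1) and Slc16a3 with 11.8 (2.38 to 16.2). Slc5a8 had 4.69 CPM per kb (2.10 to 9.66), Ffar2 1.89 (1.43 to 2.58) and Slc16a7 0.433 (0.253 to 4.45). Ffar3, at 0 to 0.0301, came last. The ranges of Bsg and Ffar3 met no other. The ranges of Hcar2, Slc16a1 and Slc16a3 overlapped, as did those of Slc16a3 and Slc5a8, of Slc5a8 and Ffar2 and of Ffar2 and Slc16a7. Compared within each mouse, Slc5a8 was above Ffar2 in all 8 mice. Hcar2 was above Slc16a1 in 7 of 8, Slc16a1 above Slc16a3 in 7 of 8, Slc16a3 above Slc5a8 in 6 of 8 and Ffar2 above Slc16a7 in 7 of 8, so the order of these neighbours did not hold in each mouse. Without baseline butyrate replicate 3 the highest Slc16a7 level was 0.563 CPM per kb, below every Ffar2 level. Among the receptors Hcar2 exceeded Ffar2 in all 8 mice, by 4.89 to 20.9 times per kb, with the smallest ratio in baseline butyrate replicate 3. The order depends on the length used. In CPM not divided by length the medians of Slc16a1 (101) and Slc16a3 (62.5) were above that of Hcar2 (50.7).

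**Figure D2:**
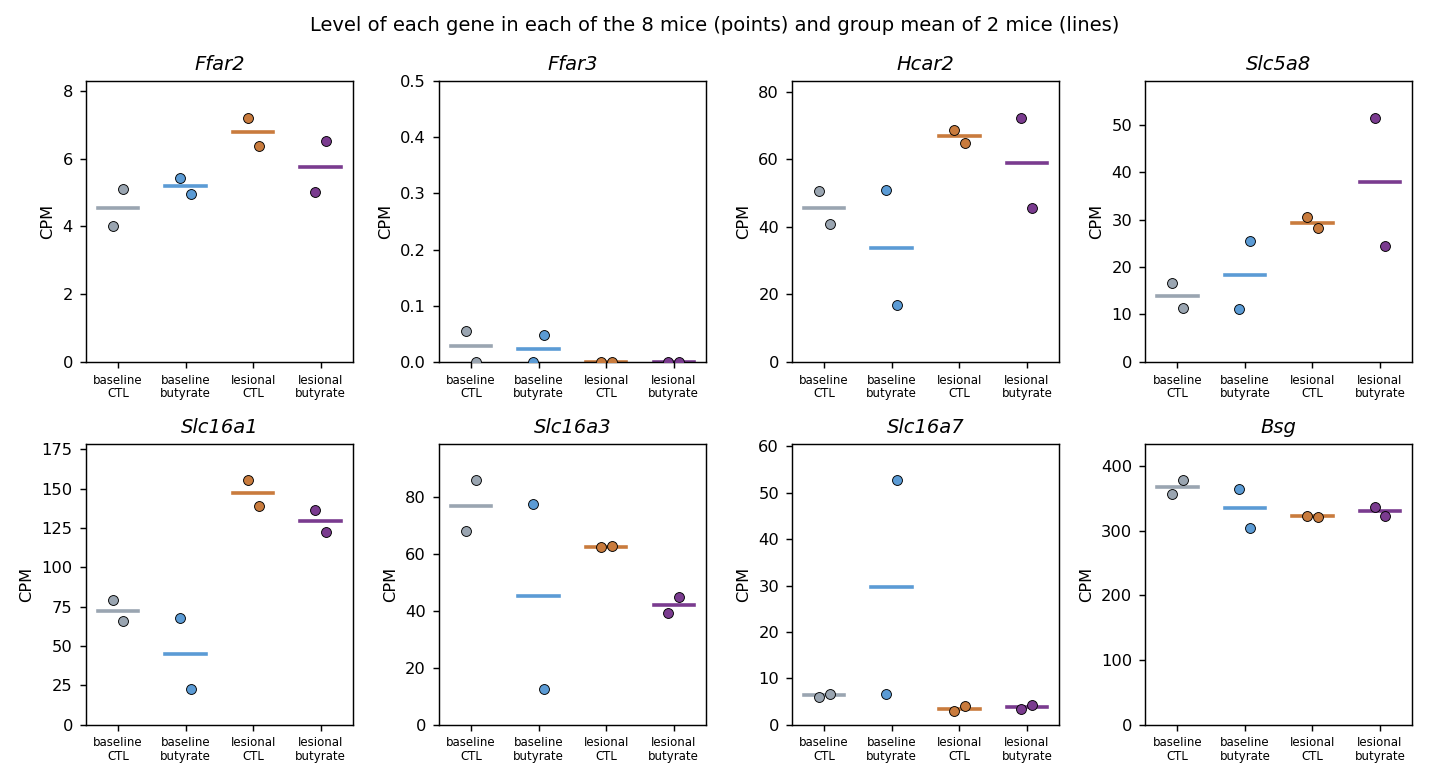
Level (CPM, linear axes from 0, a scale of its own for each gene) of the 8 genes in each mouse, with points for mice and lines for the mean of 2 mice for CTL and butyrate-treated mice of each skin state. Slc16a1 is at 123 to 155 CPM in the 4 lesional mice and at 22.7 to 78.9 CPM at baseline, and 1 baseline butyrate-treated mouse stands apart for Hcar2, Slc16a1, Slc16a3 and Slc16a7.

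No member passed the test (FDR below 0.1 and fold-change (FC) above 2, edgeR's quasi-likelihood test on all 8 mice) in any of the 5 comparisons. For butyrate against CTL in lesional skin 0 of 7 members were called, as were 0% of all 15163 genes. The groups did not overlap for 3 members, with Slc16a1 and Slc16a3 lower and Bsg higher in butyrate-treated mice, against 44.9% of all genes. For Bsg this rested on 323.6 against 323.0 CPM. With library size alone its groups overlapped, at 349.3 and 330.3 CPM in butyrate-treated and 336.2 and 331.0 CPM in CTL mice. In baseline skin 0 of 7 members and 0% of all genes were called, and 0 members had groups that did not overlap, against 29.7% of all genes. For lesional against baseline skin in CTL mice 0 of 7 members were called against 3.58% of all genes. All 7 had groups that did not overlap, with Ffar2, Hcar2, Slc5a8 and Slc16a1 higher and Slc16a3, Slc16a7 and Bsg lower in lesional skin, while this held for 75.2% of all genes. In butyrate-treated mice 0 of 7 members were called against 0.350% of all genes, and Slc16a1 (higher) and Slc16a7 (lower) were the 2 members whose groups did not overlap, against 32.5% of all genes. When the butyrate effect in lesional skin was set against that at baseline (an interaction term), 0 of 7 members and 0% of all genes were called. In this fit each gene has 1 estimate of the spread for all 4 groups. The baseline butyrate pair, far apart as given above, thus also entered the SE and FDR of comparisons without it. For Slc16a1 in lesional against baseline skin of CTL mice the FDR was 0.280 in this fit and 0.00226 in that of the 4 CTL mice.

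At an unadjusted p under 0.05, the counts of members in the same order were 0, 1, 0, 2 and 0, and those of all genes 734, 529, 2983, 1993 and 703. DESeq2 called 2 members, Slc16a1 and Slc16a7, both in lesional against baseline skin of butyrate-treated mice, and limma-voom on all 8 mice called 0. With 2 mice a group the smallest p that an exact permutation test can reach is 0.333, so none was used for single genes. The comparisons share mice: the butyrate effect and the lesional effect in CTL mice both use the CTL mice of a skin state, and they are not independent.

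**Figure D3:**
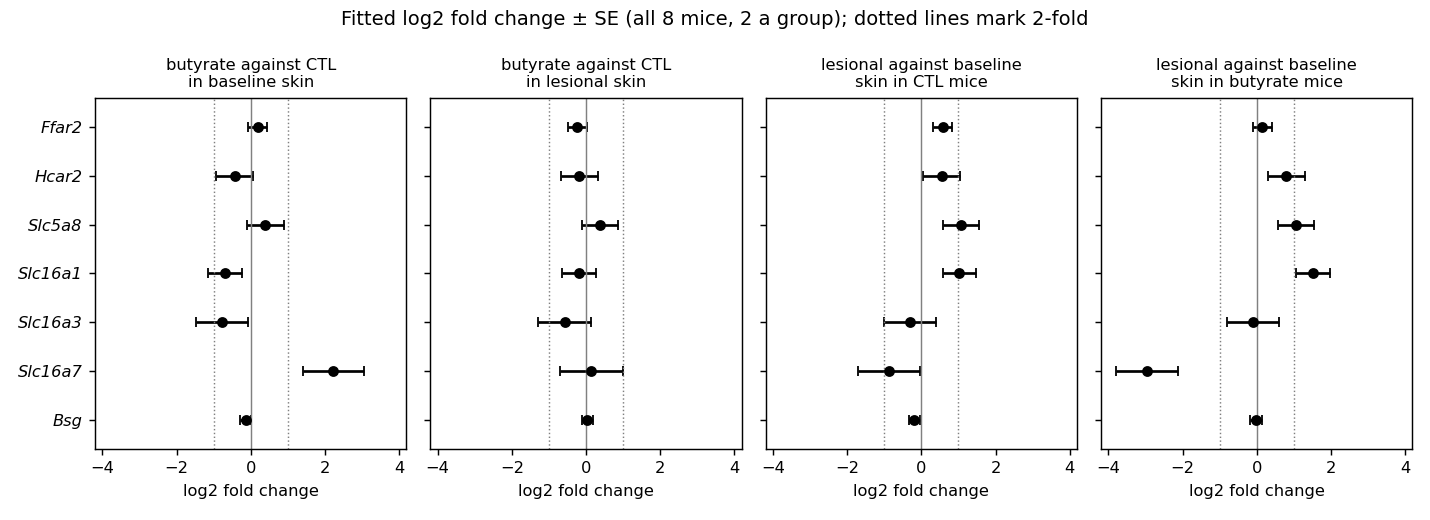
Fitted log2 fold change (points) and its standard error (bars) of the 7 tested genes in the 4 comparisons of groups, from the fit of all 8 mice with 2 mice a group. Dotted lines mark 2-fold. In CTL mice Slc5a8 is at 1.07 and Slc16a1 at 1.03, while the values of butyrate against CTL in lesional skin lie between -0.58 and 0.37.

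Ffar2 (chromosome 7, 30818348 to 30823775, minus strand, GRCm38) was found at a low level in every mouse. It had 4.00 and 5.11 CPM in baseline CTL mice, 5.41 and 4.95 CPM in baseline butyrate-treated mice, 7.21 and 6.37 CPM in lesional CTL mice and 5.01 and 6.51 CPM in lesional butyrate-treated mice. Lesional CTL mice were above baseline CTL mice, and the butyrate groups overlapped with their controls in both skin states. The log2 fold change between lesional and baseline skin was 0.57 (SE 0.26, FDR 0.277) in CTL mice and 0.15 (SE 0.25, FDR 0.842) in butyrate-treated mice. Over the alternatives the value in CTL mice kept its sign, from 0.41 to 0.76, and was not called. Its FDR varied widely and was below 0.1 at its lowest, while the fold stayed under 2. Between butyrate-treated and CTL mice the log2 fold change was -0.24 (SE 0.25, FDR 1.00) in lesional skin. Ffar2 is a known receptor of neutrophils, whose summed markers differed between the groups as given above, and their part in these values was not tested. Baseline butyrate replicate 3 lay within the range of the other mice for this gene.

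Ffar3 (chromosome 7, 30854330 to 30856178, minus strand) had 2 counts in all 8 libraries together, 1 in baseline CTL replicate 1 and 1 in baseline butyrate replicate 3. All 8 libraries were at or under the floor of 3 counts, which corresponds to 0.138 to 0.169 CPM depending on the library. Its transcript was therefore not detectable at this depth in any group, and no comparison was made. The floor covers counting error only.

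Hcar2 (chromosome 5, 123863570 to 123865499, minus strand), whose exon covers its whole span, was the most abundant of the receptors. It had 50.5 and 40.9 CPM in baseline CTL mice, 50.9 and 16.8 CPM in baseline butyrate-treated mice, 68.8 and 64.8 CPM in lesional CTL mice and 72.3 and 45.5 CPM in lesional butyrate-treated mice. Lesional CTL mice were above baseline CTL mice, and the lowest value was that of baseline butyrate replicate 3. In CTL mice the log2 fold change of lesional against baseline skin was 0.55 (SE 0.50, FDR 0.554). Over the alternatives this value kept its sign, from 0.40 to 0.71, and was not called. Its FDR varied widely and was below 0.1 at its lowest, while the fold stayed under 2. The butyrate-treated mice of lesional skin lay on either side of the CTL mice, with a log2 fold change of -0.18 (SE 0.50, FDR 1.00). In baseline skin the value for butyrate was -0.44 (SE 0.50, FDR 0.744), and it was 0.16 (FDR 1.00) without baseline butyrate replicate 3. Summed Langerhans and dendritic cell markers were 962 to 1140 CPM in 3 baseline mice, 512 CPM in baseline butyrate replicate 3 and 1397 to 1505 CPM in lesional mice, and their part was not tested. Cd74, H2-Ab1 and Epcam made up most of this sum, and 6 of the 8 markers were above 0 for lesional against baseline skin of CTL mice. The others were Cd207, the langerin gene of Langerhans cells (-0.26, FDR 0.836), and Xcr1 of dendritic cells (-0.45, FDR 0.791). Epcam encodes CD326, by which the paper sorts keratinocytes, so its part of the sum is not particular to these cells. It had 269 CPM in baseline butyrate replicate 3, 166 to 203 CPM in the other baseline mice and 242 to 430 CPM in lesional mice.

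Slc5a8 (chromosome 10, 88885992 to 88929515, plus strand), the sodium-coupled carrier, was higher in lesional skin of CTL mice. It had 16.6 and 11.3 CPM in baseline CTL mice, 11.2 and 25.5 CPM in baseline butyrate-treated mice, 30.5 and 28.3 CPM in lesional CTL mice and 51.5 and 24.5 CPM in lesional butyrate-treated mice. Lesional mice lay above the 3 baseline mice other than baseline butyrate replicate 3, whose 25.5 CPM fell among the lesional values. The mean level was 14.0 ± 3.74 CPM at baseline and 29.4 ± 1.55 CPM in lesional skin of CTL mice (SD, n = 2), a 2.10-fold difference with a log2 fold change of 1.07 (SE 0.49, FDR 0.290). The FDR was 0.0780 without baseline butyrate replicate 3, 0.0783 without baseline butyrate replicate 1 and 0.00820 in the fit of only the 4 CTL mice, each with a log2 fold change over 1, while over all alternatives it ran from 0.00670 to 0.771, so that the call depended on which mice entered the fit. In butyrate-treated mice the log2 fold change was 1.05 (SE 0.49, FDR 0.425), and 1.76 (FDR 0.0900) without baseline butyrate replicate 3. For butyrate in lesional skin it was 0.37 (SE 0.49, FDR 1.00), and -0.26 without lesional butyrate replicate 3, the mouse at 51.5 CPM.

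Slc16a1 (chromosome 3, 104638668 to 104658462, plus strand), which encodes MCT1, was higher in each lesional mouse than in any baseline mouse. It had 78.9 and 65.8 CPM in baseline CTL mice, 67.5 and 22.7 CPM in baseline butyrate-treated mice, 155 and 139 CPM in lesional CTL mice and 136 and 123 CPM in lesional butyrate-treated mice. This order of all 4 lesional above all 4 baseline mice was seen for no other member. In CTL mice the mean was 72.3 ± 9.29 CPM at baseline and 147 ± 11.4 CPM in lesional skin (SD, n = 2), 2.04-fold higher, with a log2 fold change of 1.03 (SE 0.45, FDR 0.280). As for Slc5a8 the FDR passed the threshold without baseline butyrate replicate 3 (0.00473), without baseline butyrate replicate 1 (0.00469) and in the fit of the 4 CTL mice (0.00226), each time with a log2 fold change of 1.03, and over all alternatives it ran from 0.00226 to 0.771. In butyrate-treated mice the log2 fold change was 1.52 (SE 0.46, unadjusted p 0.0159, FDR 0.288), and 0.94 (FDR 0.0435) without baseline butyrate replicate 3, when the fold was under 2. Lesional butyrate-treated mice were both below lesional CTL mice, by a log2 fold change of -0.18 (SE 0.45, FDR 1.00). In baseline skin the value for butyrate was -0.68 (SE 0.46, FDR 0.714), and -0.10 (FDR 1.00) without baseline butyrate replicate 3.

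Slc16a3 (chromosome 11, 120948480 to 120960868, plus strand), which encodes the lactate exporter MCT4, was lower in the lesional mice than in 3 of the 4 baseline mice. It had 68.1 and 85.9 CPM in baseline CTL mice, 77.4 and 12.7 CPM in baseline butyrate-treated mice, 62.3 and 62.8 CPM in lesional CTL mice and 39.1 and 44.8 CPM in lesional butyrate-treated mice. The exception was baseline butyrate replicate 3, which had the lowest value of all. Within lesional skin both butyrate-treated mice were below both CTL mice, with means of 41.9 ± 4.04 and 62.5 ± 0.335 CPM (SD, n = 2) and a log2 fold change of -0.58 (SE 0.71, FDR 1.00). The FDR for this difference was 0.138 without baseline butyrate replicate 3 and 0.180 in the fit of the 4 lesional mice, where the fold stayed under 2. In CTL mice lesional skin differed from baseline skin by -0.30 (SE 0.71, FDR 0.831) on the log2 scale. In butyrate-treated mice the value was -0.10 (SE 0.71, FDR 0.969), and it was -0.88 (FDR 0.0485) without baseline butyrate replicate 3 and 1.73 (FDR 0.00175) without baseline butyrate replicate 1, so that its sign depended on which of these mice was kept.

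Slc16a7 (chromosome 10, 125219270 to 125389465, minus strand), which encodes MCT2, was the scarcest carrier in 7 of the 8 libraries. It had 6.06 and 6.66 CPM in baseline CTL mice, 6.65 and 52.7 CPM in baseline butyrate-treated mice, 2.99 and 3.92 CPM in lesional CTL mice and 3.44 and 4.19 CPM in lesional butyrate-treated mice. All 4 lesional mice were below all 4 baseline mice, an order that was likewise not counted over all genes. In 1 library, baseline butyrate replicate 3, the level was 7.92 times that of its pair. In CTL mice the log2 fold change of lesional against baseline skin was -0.88 (SE 0.85, FDR 0.575). Without baseline butyrate replicate 3 it was -0.87 with an FDR of 0.0326, and the fold was under 2. In baseline skin the value for butyrate was 2.22 (SE 0.82, unadjusted p 0.0386, FDR 0.714), and it was 0.06 (FDR 1.00) without that library. In butyrate-treated mice the value for lesional against baseline skin was -2.96 (SE 0.83, unadjusted p 0.0142, FDR 0.285), and -0.80 (FDR 0.116) without it. The hair follicle and melanocyte markers that are high in the same library were given above, and their part was not tested. On the opposite strand lie Gm45604 and Gm47862, and since the kit named in the labels is not described as keeping the strand, reads of overlapping genes cannot be told apart with certainty.

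Bsg (chromosome 10, 79704491 to 79711969, plus strand), the chaperone of MCT1 and MCT4, varied least of the tested members. It had 358 and 378 CPM in baseline CTL mice, 365 and 305 CPM in baseline butyrate-treated mice, 323 and 322 CPM in lesional CTL mice and 337 and 324 CPM in lesional butyrate-treated mice. The lesional mice lay below the 3 baseline mice other than baseline butyrate replicate 3. The log2 fold change of lesional against baseline skin was -0.19 (SE 0.15, FDR 0.506) in CTL mice and -0.02 (SE 0.15, FDR 0.972) in butyrate-treated mice, and that of butyrate against CTL was 0.03 (SE 0.15, FDR 1.00) in lesional skin. Bsg per kb was 5.75 to 6.20 times the sum of the 4 carriers in 3 baseline mice and 3.37 to 4.34 times in the lesional mice, and 10.03 times in baseline butyrate replicate 3.

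The makeup of the carrier transcripts was compared between skin states. Per kb the 4 carriers summed to 34.3, 33.7 and 32.5 CPM per kb in the baseline mice other than baseline butyrate replicate 3, to 16.7 in that mouse, to 52.8 and 48.9 in lesional CTL mice and to 48.1 and 41.1 in lesional butyrate-treated mice. Slc16a1 took 52.0% and 44.1% of this sum in baseline CTL mice, 47.0% and 30.6% in baseline butyrate-treated mice, 66.5% and 64.3% in lesional CTL mice and 64.0% and 67.5% in lesional butyrate-treated mice. The share of Slc16a1 was thus higher in each lesional mouse than in each baseline mouse. The share of Slc16a3 was 37.4% and 47.9% in baseline CTL mice, 44.8% and 14.2% in baseline butyrate-treated mice, 22.2% and 24.1% in lesional CTL mice and 15.3% and 20.5% in lesional butyrate-treated mice. The lowest of these shares was that of baseline butyrate replicate 3, while the other baseline mice were above each lesional mouse. Slc16a1 was 1.39 and 0.920 times as abundant as Slc16a3 per kb in baseline CTL mice, 1.05 and 2.15 times in baseline butyrate-treated mice, 3.00 and 2.67 times in lesional CTL mice and 4.19 and 3.29 times in lesional butyrate-treated mice. These ratios are a description, with no test, and they compare carriers with each other within a library. In baseline butyrate replicate 3 Slc16a7 took 26.6% and Slc5a8 28.6% of the sum, against 0.478% to 1.73% and 6.30% to 20.1% in the other mice.

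**Figure D4:**
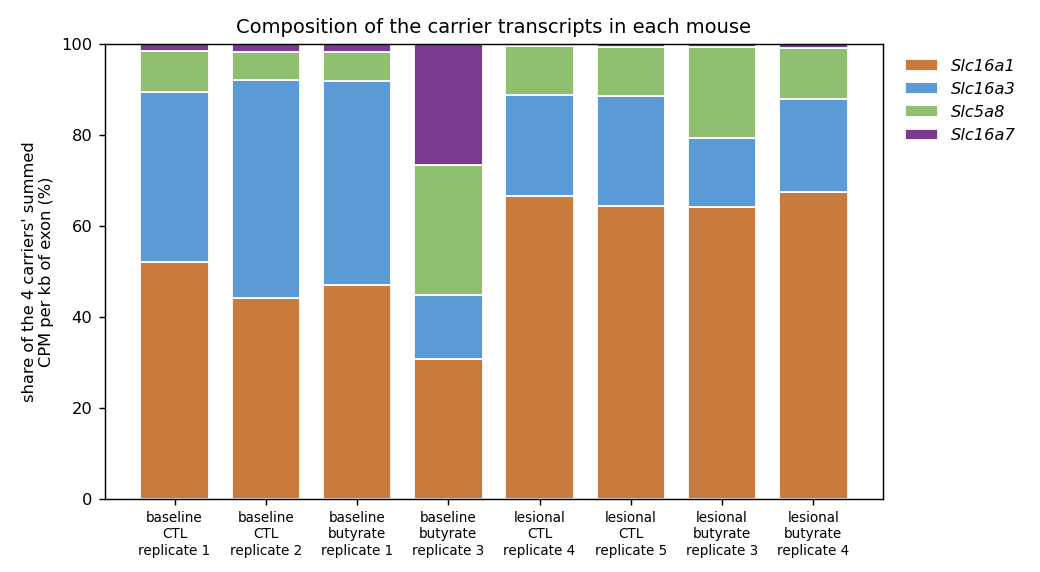
Share (%) of Slc16a1, Slc16a3, Slc5a8 and Slc16a7 in their summed CPM per kb of exon in each of the 8 mice. Slc16a1 takes 64.0% to 67.5% in the 4 lesional mice and 30.6% to 52.0% at baseline, and Slc16a7 is visible as a large share, 26.6%, in baseline butyrate replicate 3 alone.

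With all 8 mice the values of butyrate in baseline skin rested on baseline butyrate replicate 3. Without it, the log2 fold changes of the 7 members lay between -0.32 (Slc5a8) and 0.25 (Ffar2), and 0 were called. Without replicate 1 of the same group instead, so that replicate 3 stood for the group, 4 members were called: Hcar2 at -1.45 (FDR 0.0137), Slc16a1 at -1.68 (FDR 0.00135), Slc16a3 at -2.61 (FDR 0.000524) and Slc16a7 at 3.05 (FDR 0.000376), among 3777 genes called in all. In these fits the remaining mouse is assumed to vary like the other groups. The interaction term for the members was likewise within -0.58 (Slc16a3) and 0.69 (Slc5a8) without replicate 3, with 0 members called, while for Slc16a7 it was -2.08 (SE 1.18, FDR 0.840) with all mice.

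**Figure D5:**
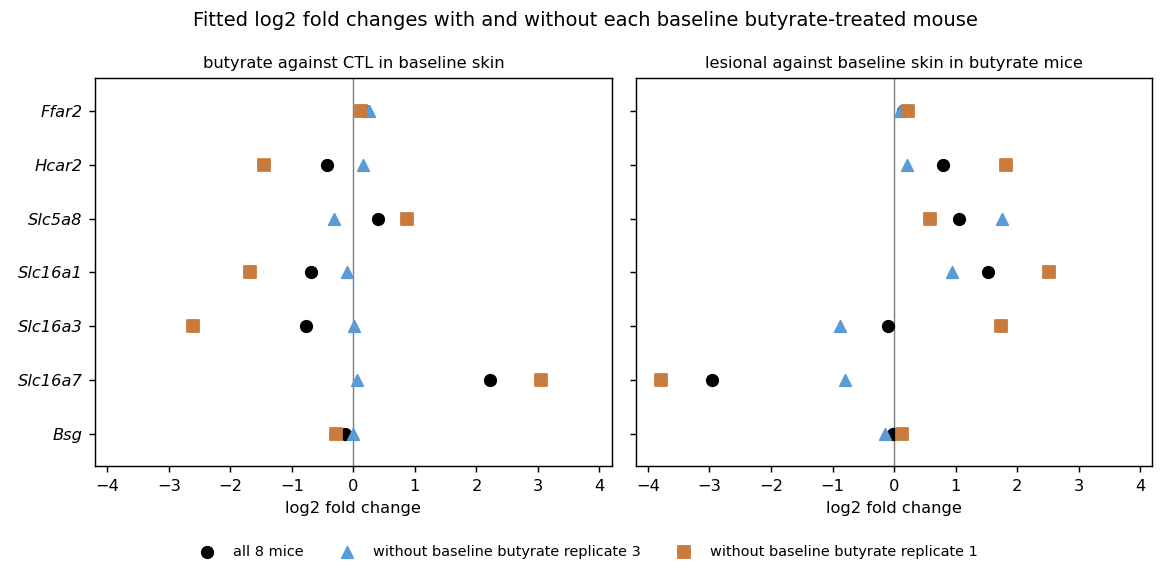
Fitted log2 fold changes of the 7 tested genes for butyrate against CTL in baseline skin and for lesional against baseline skin in butyrate-treated mice, with all 8 mice (circles), without baseline butyrate replicate 3 (triangles) and without baseline butyrate replicate 1 (squares). For Slc16a3 in the second comparison the triangle is at -0.88 and the square at 1.73, and for Slc16a7 in the first they are at 0.06 and 3.05.

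Other genes of the pathway were described by lists. Of 5 related receptors (the free fatty acid receptors Ffar1 and Ffar4, the lactate receptor Hcar1, Gpr84 and Olfr78) 4 were tested and 0 were called in any of the 5 comparisons. Ffar1 had 0 counts in all 8 mice, and Hcar1 had 4.66 to 13.9 CPM. Gpr84, a receptor for medium-chain fatty acids known from neutrophils and macrophages, had 3 and 1 counts in baseline CTL mice, 2 and 1 in baseline butyrate-treated mice, 12 and 15 in lesional CTL mice and 4 and 2 in lesional butyrate-treated mice. Its fitted log2 fold change was 2.52 (SE 0.72, FDR 0.121) for lesional against baseline skin of CTL mice and -2.19 (SE 0.65, FDR 0.823) for butyrate in lesional skin, values that depend on the prior count at so few reads. Of 8 G protein and arrestin genes that carry receptor signals 8 were tested and 0 called, with the largest value in lesional CTL mice for Arrb2, the arrestin that binds activated receptors (0.52, FDR 0.267). Of 12 other carriers of the SLC16 family and SMCT2, 9 were tested and 0 called. Slc16a6, a carrier known to move ketone bodies, had the largest value in lesional against baseline skin of CTL mice, at 1.17 (SE 0.41, FDR 0.208), with 35.7 and 34.6 CPM at baseline and 84.0 and 73.8 CPM in lesional skin. The gene of SMCT2, Slc5a12, had 0 counts in all mice.

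Among 7 basigin partners and relatives 1 gene was called. Cd44, the hyaluronan receptor that associates with basigin, rose in lesional skin of CTL mice by a log2 fold change of 1.25 (SE 0.24, FDR 0.0643), from 370 and 283 CPM to 884 and 673 CPM. Lesional butyrate-treated mice had 707 and 565 CPM. Emb, the embigin gene, was at 161 and 163 CPM in lesional CTL mice, at 163 to 166 CPM in 3 baseline mice, at 146 and 153 CPM in lesional butyrate-treated mice and at 68.0 CPM in baseline butyrate replicate 3.

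Of 13 genes of the hypoxia response 1 was called, and it encodes a part of HIF-1 itself rather than a target of it. Hif1a, the oxygen-regulated subunit of HIF-1, rose in lesional skin of CTL mice by a log2 fold change of 1.66 (SE 0.31, FDR 0.0689), from 108 and 106 CPM to 395 and 280 CPM, and lesional butyrate-treated mice had 239 and 206 CPM. The median of the 13 genes in this comparison was -0.22 against -0.02 over all genes tested, with 4 values above 0 and 9 below. The 16 genes of glycolysis and lactate had 0 calls in every comparison. In CTL mice their median for lesional against baseline skin was -0.23, with Slc2a1, the glucose transporter GLUT1, highest at 0.97 (SE 0.35, FDR 0.213) and Pfkm, the muscle phosphofructokinase, lowest at -1.28 (SE 0.67, FDR 0.344). Their sum was 10640 to 11150 CPM in 3 baseline mice, 3888 CPM in baseline butyrate replicate 3 and 6277 to 7803 CPM in lesional mice, and the skeletal muscle markers were lower in the same mice, a part that was not tested. Gapdh had no more than 18.3 CPM, and copies of this gene elsewhere in the genome make its counts uncertain.

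Genes that handle butyrate and pyruvate inside the cell had lower values in lesional skin of CTL mice, with 0 called. All 10 tested of 12 genes for acyl-CoA activation and short-chain β-oxidation were below 0 (median -0.63 against -0.02 over all genes), as were 12 of 12 genes of mitochondrial pyruvate handling (median -0.42). In the same comparison 12 of 12 skeletal muscle markers (median -1.11) and 8 of 10 adipocyte markers (median -0.53) were below 0. The adipocyte markers summed to 6416 and 6073 CPM in baseline CTL mice and to 3594 and 4258 CPM in lesional CTL mice, and the part of either marker list was not tested. Pdk4, a kinase that inactivates pyruvate dehydrogenase, had the lowest value at -2.81 (SE 0.69, FDR 0.127), with 806 and 435 CPM at baseline and 99.8 and 77.6 CPM in lesional skin. In lesional skin the butyrate groups differed by medians of 0.11 and -0.07 for these lists. Of 8 histone deacetylases, enzymes that butyrate inhibits, 8 were tested and 0 called, though Hdac5 had an FDR of 0.0372 for lesional against baseline skin of CTL mice, where its log2 fold change of -0.88 was under 2-fold.

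For the 5 tested members whose level varied by over 1 log2 unit, the 3 genes with the closest pattern over the 8 mice were sought among all genes tested, by the root-mean-square (RMS) difference of centred log2 CPM. Ffar2 and Bsg varied by 0.78 and 0.31 log2 units and were left out. The pattern of Hcar2 was closest to Amz1 (RMS 0.11), Nr4a2 (0.16) and Sema4f (0.17). That of Slc5a8 was closest to Klk7 (0.16), a protease of the stratum corneum, Styk1 (0.19) and Tuba1c (0.22), and Klk7 had 279 and 246 CPM in baseline CTL mice against 627 and 540 CPM in lesional CTL mice. Slc16a1 was closest to Aadac (0.14), Havcr2 (0.17) and Ptges (0.18), which makes prostaglandin E and had 53.8 and 62.9 CPM in baseline CTL and 139 and 140 CPM in lesional CTL mice. Slc16a3 was closest to Slc16a14 (0.21), a carrier of its own family, Col7a1 (0.22) and Gpx3 (0.23). Slc16a7 was closest to Pm20d1 (0.21), Cacna2d3 (0.23) and Slc40a1 (0.25), and each of these was highest in baseline butyrate replicate 3, at 41.5, 13.0 and 223 CPM. The likeness is over 8 libraries, and that mouse holds the lowest or highest value of Hcar2, Slc16a1, Slc16a3 and Slc16a7.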

How the data were processed

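Skin RNA of 8 mice was measured by RNA sequencing. Reads were aligned by the authors to GRCm38 (STAR 2.5.2, run by RNASik) and assigned to genes on the reverse strand with featureCounts, and the authors deposited raw counts of protein-coding genes without normalization. Per the labels the library kit is a TruSeq RNA kit. Library totals were 18004136 to 21085544 counts, and counting error limits genes near 3 counts.

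Groups were taken from the labels, with the labels SCFA, vehicle and atopic dermatitis taken to mean butyrate, CTL and lesional skin. CPM was calculated from TMM-scaled library sizes (factors 0.944 to 1.04), and CPM per kb from the union of exons in GENCODE vM21. Comparisons used the robust quasi-likelihood test of edgeR 4.0.16 (R 4.3.3) on 1 fit of all 8 mice with 4 residual degrees of freedom, filterByExpr (minimum count 10) and Benjamini-Hochberg FDR over 15163 genes, and genes were called at an FDR below 0.1 and a fold-change above 2. Standard errors come from the fitted model. The common biological coefficient of variation was 0.276. The code was tested on simulated counts. As alternatives, DESeq2 1.42.0 and limma-voom (limma 3.58.1) were run, with fits of the 4 compared mice, other normalizations, filters, prior counts and thresholds, and leaving out each mouse.

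All 8 members are named. From other lists, genes that passed the test or had the largest or smallest value in a comparison are named, with a few more (Emb, Ffar1, Hcar1, Slc5a12, Gapdh, Hdac5) chosen after their values were seen. Members and lists were chosen with earlier results of these data known. Lists were matched by Ensembl identifier, and Trac, Trbc1, Trbc2, Trdc, Flg and Krt85 of the marker lists were not analysed here. Sequences are from RefSeq (GRCm38.p6), whose promoter table held entries for Ffar2, Ffar3, Slc5a8, Slc16a1 and Slc16a3.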

Additional observations from a re-analysis of the deposited data

How the results depend on the processing

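Over the alternatives, 501 of 546 log2 fold changes of the members kept their direction and side of the threshold, 23 changed sign and 23 newly passed, 1 of which did both (Slc16a3 in butyrate-treated mice without baseline butyrate replicate 1). Members called numbered 2 in lesional against baseline skin of CTL mice with edgeR or limma-voom on only the 4 compared mice, and 2 with DESeq2 in lesional against baseline skin of butyrate-treated mice. Leaving out 1 mouse gave 0 to 4 members for butyrate in baseline skin, 0 to 2 for lesional skin in CTL mice, 0 to 4 in butyrate-treated mice and 0 to 4 for the difference of the butyrate effects, the highest counts without baseline butyrate replicate 1.

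Genes called for butyrate in lesional skin numbered 1 (limma-voom), 124 (DESeq2), 25 and 14 (edgeR and limma-voom on 4 mice) against 0, and 0 to 191 with 1 mouse left out. For butyrate in baseline skin DESeq2 called 58 and leaving out 1 mouse gave 0 to 3777. For lesional skin in CTL mice, against 543, there were 1093 with DESeq2, 1918 and 1913 on 4 mice, 245 at an FDR below 0.05 and 0 to 1936 with 1 mouse left out. In butyrate-treated mice, against 53, there were 698 with DESeq2, 0 on 4 mice with either tool, 83 with library size alone, 17 at an FDR below 0.05 and 0 to 2990 with 1 mouse left out. For the difference of the butyrate effects DESeq2 called 37 and leaving out 1 mouse gave 0 to 3275. Fewer mice also leave fewer residual degrees of freedom, and what else moved these counts was not tested.

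The sign changed for Slc16a3 in lesional against baseline skin of butyrate-treated mice with limma-voom (0.47 on all 8 mice and 0.47 on 4) and for Bsg with library size alone (0.035). The cause was not tested. With 1 mouse left out, the log2 fold changes for butyrate in lesional skin ranged from -0.55 to 0.12 (Hcar2), -0.26 to 0.81 (Slc5a8) and -0.041 to 0.35 (Slc16a7). For butyrate in baseline skin they ranged from -1.45 to 0.16 (Hcar2), -0.32 to 0.86 (Slc5a8) and -2.61 to 0.0079 (Slc16a3). For lesional skin in butyrate-treated mice they ranged from -0.031 to 0.33 (Ffar2), -0.88 to 1.73 (Slc16a3) and -0.14 to 0.12 (Bsg). For the difference of the butyrate effects they ranged from -0.33 to 1.27 (Hcar2), -0.65 to 0.69 (Slc5a8), -0.084 to 1.49 (Slc16a1), -0.58 to 2.03 (Slc16a3) and -2.91 to 0.073 (Slc16a7). No paired analysis was made, because each library is a different mouse and the replicate numbers do not pair the groups.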
